A study of Homo sapiens with 36 samples.

Results

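The tumour suppressor p53 is a transcription factor that DNA damage stabilises. It binds a response element made of a pair of similar decamers near or within its target genes, and through them it arrests the cell cycle, aids DNA repair, changes metabolism and raises its own inhibitors. Fludarabine, a purine nucleoside analogue used against chronic lymphocytic leukaemia, stalls DNA synthesis and repair and so calls on this pathway, whereas ibrutinib (a Bruton tyrosine kinase inhibitor) and idelalisib (a PI3 kinase delta inhibitor) block B-cell receptor signalling.

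The genes described here are direct p53 targets of arrest, repair, metabolism, signalling and feedback, chosen by symbol as known targets and leaving aside the core death genes. The list held 44 entries and 43 different symbols, TRIAP1 being listed in duplicate, and 41 of these symbols were among the 37549 genes of the count table. TRIM22B and PVT1L matched no current or older symbol and have no value. The counts came from 36 RNA-sequencing libraries of ribosomal RNA-depleted total RNA from 3 leukaemic B-cell lines, with 3 libraries in each of 12 groups. MEC1 cells were treated for 48 h, JVM2 cells for 72 h and EHEB cells for 96 h with 50 µM fludarabine, 5 µM ibrutinib, 10 µM idelalisib or the solvent DMSO. MEC1 is known as a line with mutated p53 and JVM2 and EHEB as wild-type lines, which was not read from these data. Each line is a single model, so line, p53 status and time of treatment cannot be told apart.

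Library totals lay between 26590705 and 53538925 counts. The 5 B-cell markers (MS4A1, CD79A, CD79B, PAX5 and CD22) summed to 665 to 1645 CPM (counts scaled to a common library total) in every library. The markers of T cells, monocytes, erythroid, epithelial and fibroblast cells were at or near 0, the highest sums being 24.7 CPM for fibroblast markers and 17.6 CPM for epithelial markers. With fludarabine the B-cell sum was 665 to 691 CPM in JVM2 against 1077 to 1124 with DMSO, and 868 to 948 in EHEB against 1433 to 1478, while in MEC1 the 12 markers of other cell types summed to 21.3 to 22.3 CPM with fludarabine against 3.12 to 4.97 with DMSO. The part of these shifts in the results was not tested. The labels say that treatments were in triplicate and not whether cultures were separate, so p values measure the spread between these libraries, which may be technical. The kinase inhibitor libraries carry higher library numbers than the DMSO and fludarabine libraries of their line, and no DMSO library has a number in that range. The labels do not say what the numbers mean. Any difference that goes with them cannot be told apart from the drug. In bulk RNA, fewer cells of a kind and less RNA per cell cannot be told apart either.

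Response elements were searched within 3000 bases of the start of each gene on the GRCh38 genome, as both decamers of the p53 consensus joined without a spacer, on both strands, with the core C and G of each decamer intact and at most 2 mismatches elsewhere. Of 33 genes of the list with a start in the RefSeq promoter table (GRCh38), 15 (45.5%) held such an element, against 1354 of 27305 genes (4.96%) overall. Those with at most 1 mismatch were 5 (15.2%) against 0.769%, and those with none were PLK2 and ZMAT3, which is 6.06% against 0.154%. A match is a description of letters and not a binding site. The elements below are the closest match of each of the 5 genes with at most 1 mismatch. They are followed by those of genes with 2 mismatches at best whose levels are given by library further on. CCNG1 and EDA2R each held another element with 2 mismatches, 2384 and 506 bases after the start, which is not shown. The elements are shown in capitals with 5 flanking bases on each side, 5′ to 3′ on the strand of the gene.
PLK2 (chr5:58462274-58462293, minus strand, 2198 bases before the start, outside the gene, 0 mismatches): atgagAAACATGCCTGGACTTGCCCtgcac
ZMAT3 (chr3:179070188-179070207, minus strand, 856 bases before the start, in an intron of a longer transcript, 0 mismatches): tcataAAACAAGTCCAGACATGCCTaggca
CCNG1 (chr5:163437926-163437945, plus strand, 364 bases after the start, intron, 1 mismatch): tgtgaGCACAAGCCCAGGCTAGTCCgaggc
EDA2R (chrX:66638713-66638732, minus strand, 356 bases after the start, intron, 1 mismatch): tctgaGAACATGCCTGGACGTGTCCaacaa
DDB2 (chr11:47214969-47214988, plus strand, 524 bases after the start, exon, 1 mismatch): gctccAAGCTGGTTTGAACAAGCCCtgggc
CDKN1A (chr6:36676449-36676468, plus strand, 2256 bases before the start, overlapping an exon of a longer transcript, 2 mismatches): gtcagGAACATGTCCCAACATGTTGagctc
MDM2 (chr12:68808923-68808942, plus strand, 760 bases after the start, intron, 2 mismatches): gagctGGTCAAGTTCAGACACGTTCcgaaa
GDF15 (chr19:18385308-18385327, plus strand, 840 bases before the start, intron of a longer transcript, 2 mismatches): attgcCATCTTGCCCAGACTTGTCTcgaac
BTG2 (chr1:203303642-203303661, plus strand, 1868 bases before the start, outside the gene, 2 mismatches): gggtcACGCATGTTCAGGCATGCATggaat
SPATA18 (chr4:52051957-52051976, plus strand, 662 bases after the start, intron, 2 mismatches): aggaaGGACATGTGTGTACATGCCCttgtc
DRAM1 (chr12:101880194-101880213, plus strand, 2624 bases after the start, intron, 2 mismatches): tagatAGGCATGCACAACCATGCCCagcta
FAS (chr10:88991309-88991328, plus strand, 520 bases after the start, exon, 2 mismatches): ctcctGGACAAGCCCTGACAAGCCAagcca
Of the 5 genes with at most 1 mismatch, PLK2, EDA2R and DDB2 were higher with fludarabine in both JVM2 and EHEB, while ZMAT3 and CCNG1 were called higher in neither.

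The first question was how these genes responded to fludarabine in each line. In JVM2, 36 of the 40 genes tested were higher with fludarabine than with DMSO (adjusted p under 0.05, where 23.9% of all 17508 genes tested were higher) and 1, CCNG1, was lower (23.3% of all genes). In EHEB, 32 of 40 were higher and 0 lower, against 18.4% and 19.2% of 17748 genes, and the count of lower genes was also 0 at an unadjusted p under 0.05 in edgeR and 0 with DESeq2 and with limma-voom. In MEC1, 17 of 38 were higher and 7 lower, against 21.2% and 22.7% of 17516 genes. With any single library left out, 12 to 15 were higher and 7 to 8 lower in MEC1, so no such fit reached 17. Under the other settings tried, 12 to 25 were higher and 3 to 7 lower there. Leaving out single libraries gave 33 to 35 higher in JVM2 and 31 to 32 in EHEB. The median log2 fold change over the genes tested was 1.13 in JVM2, 1.11 in EHEB and 0.19 in MEC1, beside medians over all genes of 0.06, 0.02 and 0.06. JVM2 and EHEB share no library, and 31 genes were higher in both, which is 86.1% of those in JVM2 and 96.9% of those in EHEB. Over all 16312 genes tested in both, 11% were higher in both. Of these, 14 were also higher in MEC1 (ACER2, AEN, FAM210B, FDXR, GDF15, PHLDA3, PLK2, PLK3, PPM1D, PTP4A1, SESN1, TIGAR, TP53I3 and TP53INP1), against 5.1% of the 15181 genes tested in the 3 lines, and CMBL, CYFIP2, TRIAP1 and XPC were lower in MEC1.

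**Figure D1:**
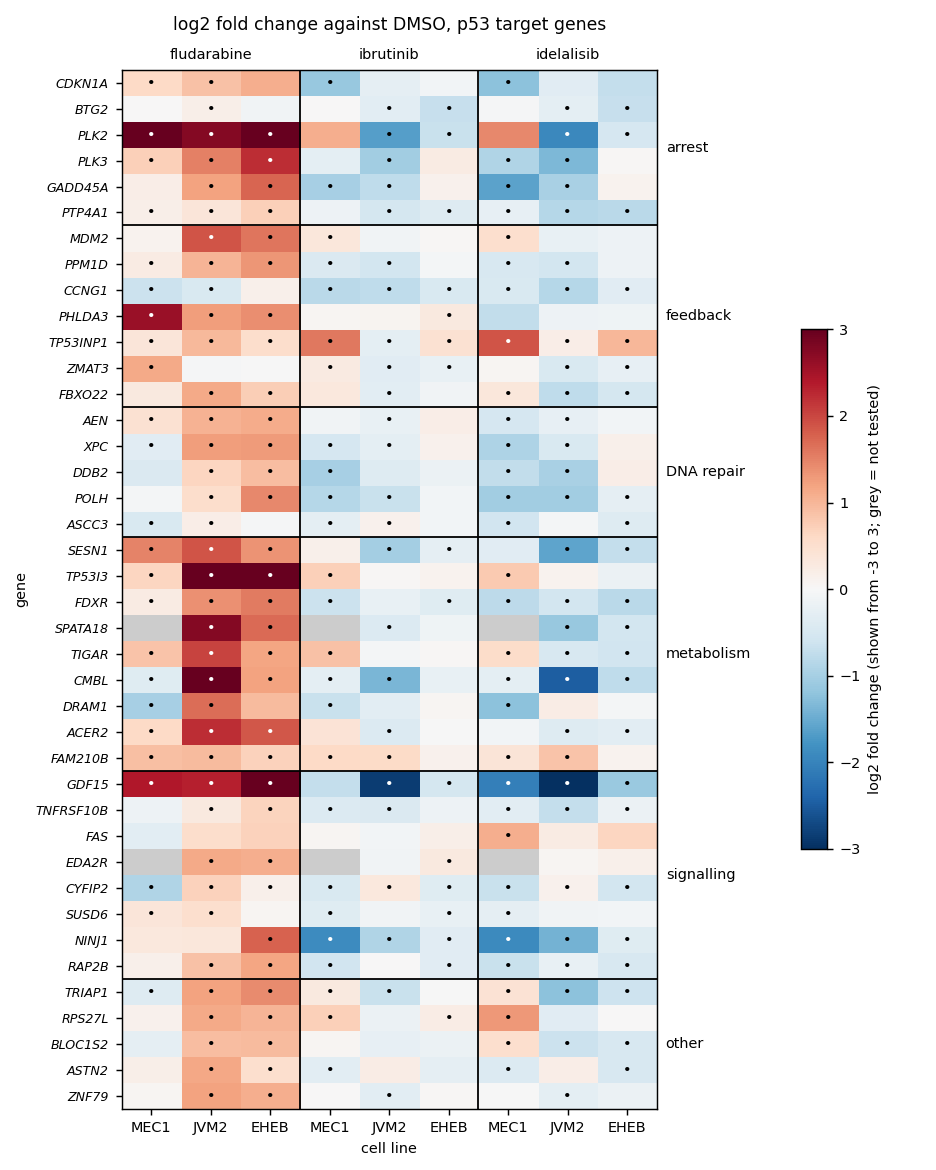
Log2 fold change against DMSO of the 40 genes tested in at least 1 line (rows, by role) for fludarabine, ibrutinib and idelalisib in the 3 lines (columns), coloured from -3 to 3, with dots where the adjusted p was under 0.05. The fludarabine columns of JVM2 and EHEB are mostly red, with 36 and 32 genes called higher, while the MEC1 column is mixed and most kinase inhibitor columns are mostly pale or blue.

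Whether the response itself differed between lines was tested as an interaction over the 18 DMSO and fludarabine libraries. The fludarabine effect was larger in JVM2 and EHEB than in MEC1 for 28 of 40 genes, against 12.7% of all 19286 genes, and smaller for 2 (16.2% of all genes). Of these, ZMAT3 was measured in every line, while SPATA18 had 15 counts in the MEC1 libraries and gave no usable value. The median difference was 0.85 on the log2 scale, beside -0.04 over all genes. The largest positive differences were those of TP53I3 (2.75 ± 0.20 SE, adjusted p = 6.72e-08), CMBL (2.43 ± 0.11, adjusted p = 8.87e-10) and DRAM1 (2.27 ± 0.50, adjusted p = 0.0025). No difference passed the test for BTG2, CDKN1A, FAM210B, FAS, GDF15, PHLDA3, PLK2, SESN1 and SUSD6, and EDA2R, with no count in MEC1, gave no usable value. Leaving out 1 library, named by the number that ends its label, brought GDF15 (MEC1 fludarabine library 47, 1.42, adjusted p = 0.0432), PHLDA3 (JVM2 fludarabine library 94, -1.08, adjusted p = 0.0128), PLK2 (MEC1 DMSO library 38, -1.51, adjusted p = 0.0434) and SUSD6 (MEC1 DMSO library 38, -0.18, adjusted p = 0.0401) past the test. Between the wild-type lines the effect was larger in EHEB for 9 genes (9.63% of all genes) and larger in JVM2 for 11 (12.6%), with a median difference of -0.03.

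**Figure D2:**
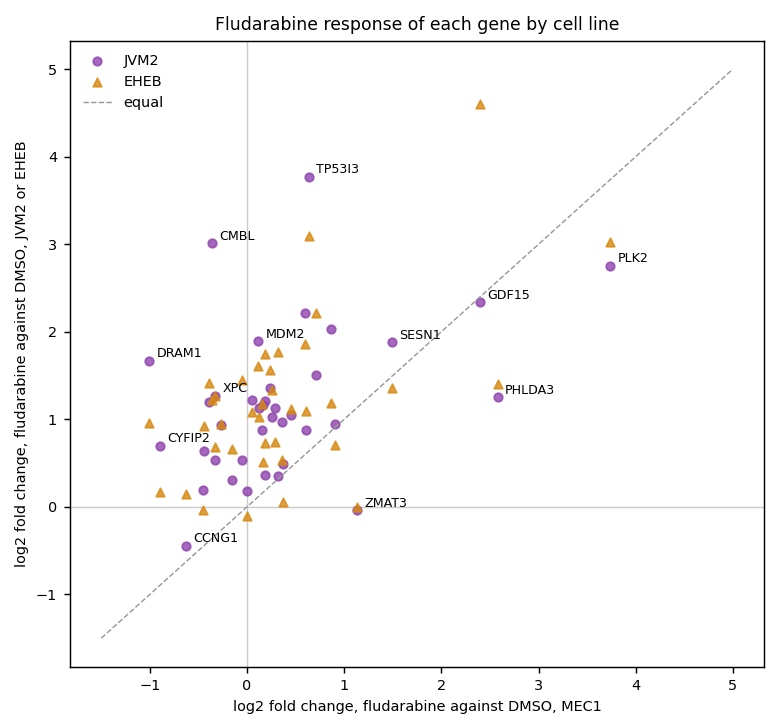
Log2 fold change with fludarabine against DMSO in MEC1 (horizontal) and in JVM2 (circles) or EHEB (triangles) (vertical) for the genes tested in both lines, with the line of equal response dashed. Most points lie above the line, while ZMAT3, PLK2 and PHLDA3 lie below it.

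Among the arrest genes, CDKN1A, which encodes the cyclin-dependent kinase inhibitor p21, stood at 113, 112 and 115 CPM with DMSO and at 184.4, 158 and 176 CPM with fludarabine in MEC1, a log2 fold change of 0.61 ± 0.08 (SE, adjusted p = 8.5e-05). In JVM2 it was at 489, 503 and 503 CPM with DMSO and at 1171, 1181 and 393 CPM with fludarabine. In EHEB it was at 656, 642 and 680 CPM with DMSO and at 1856, 569 and 1814 CPM with fludarabine. In both wild-type lines, then, 2 fludarabine libraries lay far above every DMSO library and the third lay below them all. The log2 fold change was 0.88 ± 0.30 in JVM2 (adjusted p = 0.0341) and 1.10 ± 0.46 in EHEB (adjusted p = 0.082). Without EHEB_Flud_50uM_143, the lowest fludarabine library, it was 1.47 and passed the test (adjusted p = 0.0131). The JVM2 call was lost when any of libraries 85, 86, 87, 94 or 95 was left out (adjusted p = 0.0782 to 0.131). It was also lost with limma-voom (adjusted p = 0.0971) and in a fit of 2 groups (0.0994).

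Of the other arrest genes, PLK2, a polo-like kinase of the stress response, was nearly absent from MEC1, with 0, 9 and 6 counts under DMSO (0, 0.198 and 0.169 CPM) and 65, 64 and 45 counts under fludarabine (1.89, 1.64 and 1.49 CPM). It rose from 9.29, 11.1 and 9.24 CPM to 64.0, 68.8 and 67.1 CPM in JVM2, and from 10.8, 10.5 and 10.0 CPM to 78.6, 91.5 and 86.1 CPM in EHEB. The log2 fold changes were 3.74 ± 0.78, 2.75 ± 0.14 and 3.03 ± 0.12 in MEC1, JVM2 and EHEB, all past the test and with no overlap between groups. GADD45A, a stress-induced growth arrest gene, rose in JVM2 (1.21 ± 0.10) and EHEB (1.74 ± 0.08) and gave 0.19 ± 0.22 in MEC1. PLK3 rose in all 3 lines by 0.71 to 2.21 and the phosphatase gene PTP4A1 by 0.18 to 0.72, on the log2 scale. In MEC1 the call of PLK3 was lost without any single library of the 6 compared (adjusted p = 0.058 to 0.101), and that of PTP4A1 without any of them but fludarabine library 47 (adjusted p = 0.0562 to 0.18). BTG2, an antiproliferative gene and early p53 target, gave small differences. It lay between 138 and 144.3 CPM in the DMSO and fludarabine libraries of MEC1, where the groups overlapped, at 261, 275 and 266 against 307, 307 and 295 CPM in JVM2, and at 509, 499 and 477 against 465, 465 and 455 CPM in EHEB. Its log2 fold change was 0.18 ± 0.04 in JVM2, which passed the test (adjusted p = 0.00275), and -0.10 ± 0.05 in EHEB (adjusted p = 0.126).

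Among the feedback genes, MDM2, which encodes the ubiquitin ligase that degrades p53, stood at 275, 269 and 249 CPM with DMSO and 299.7, 275 and 283 CPM with fludarabine in MEC1. In JVM2 it rose from 628, 626 and 545 CPM to 2454, 1960 and 2263 CPM, and in EHEB from 935, 987 and 790.1 CPM to 2748, 2694 and 2828 CPM. The log2 fold changes were 1.89 ± 0.10 and 1.61 ± 0.12 in JVM2 and EHEB, with groups far apart, against 0.11 ± 0.09 in MEC1 (adjusted p = 0.356), and the difference between the wild-type lines and MEC1 was 1.59 ± 0.11 (adjusted p = 3.82e-08). PPM1D, a phosphatase that switches off the damage response, stood at 32.5, 35.5 and 34.2 CPM against 39.6, 41.6 and 40.5 CPM in MEC1, a log2 fold change of 0.25 ± 0.06 (adjusted p = 0.00542). In JVM2 it went from 57.5, 57.7 and 52.0 CPM to 109.9, 126 and 103.9 CPM, and in EHEB from 47.5, 44.7 and 43.1 CPM to 106, 124 and 110.3 CPM, with log2 fold changes of 1.03 ± 0.08 and 1.33 ± 0.08. The groups did not overlap in any line. FBXO22, a ubiquitin ligase subunit, rose in JVM2 (1.13 ± 0.07) and EHEB (0.74 ± 0.14) and gave 0.29 ± 0.13 in MEC1 (adjusted p = 0.101).

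CCNG1, the cyclin G1 gene and a classical p53 target, was not called higher in any line. With fludarabine it stood at 97.2, 107 and 109.6 CPM in MEC1 against 153, 146 and 187 CPM with DMSO, and at 235, 239.2 and 204 CPM in JVM2 against 312, 301 and 312 CPM. It was thus lower in both lines, by -0.63 ± 0.11 (adjusted p = 0.000689) and -0.45 ± 0.09 (adjusted p = 0.00143) on the log2 scale. In EHEB it stood at 139, 153 and 148 CPM against 146, 126 and 127 CPM (0.14 ± 0.07, adjusted p = 0.164), where the groups overlapped. Its difference between the wild-type lines and MEC1 was 0.43 ± 0.11 (adjusted p = 0.0072). ZMAT3, an RNA-binding zinc finger gene, was called higher in MEC1 alone. It rose from 129, 141 and 124 CPM to 280.9, 285 and 299 CPM in MEC1 (1.14 ± 0.06, adjusted p = 1.53e-07) and stood at 1906, 1884 and 1865 against 1878, 1917 and 1703 CPM in JVM2 and at 983, 1006 and 911 against 951, 991 and 949 CPM in EHEB. The log2 fold changes there were -0.04 ± 0.05 and -0.01 ± 0.05. The level of ZMAT3 in MEC1 with fludarabine thus stayed below that of every JVM2 and EHEB library, on CPM scaled within each line.

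PHLDA3, a repressor of AKT, was at 22, 11 and 8 counts with DMSO and 85, 72 and 53 counts with fludarabine in MEC1, that is 0.535, 0.242 and 0.225 against 2.47, 1.85 and 1.75 CPM (2.58 ± 0.76, adjusted p = 0.0169). Leaving out MEC1 DMSO library 38 or 39 or fludarabine library 46 gave adjusted p = 0.06, 0.0596 and 0.0515. In JVM2 it was at 53.8, 47.7 and 68.5 CPM against 50.1, 168 and 185.8 CPM (1.25 ± 0.37, adjusted p = 0.016), with fludarabine library 94 at the level of DMSO. That call was lost without library 86, 95 or 96 (adjusted p = 0.0587, 0.0577 and 0.0721), with limma-voom (0.0607) and in a fit of 2 groups (0.0591). In EHEB it rose from 79.8, 83.5 and 90.9 CPM to 234.3, 220.2 and 216 CPM (1.40 ± 0.08). TP53INP1, a nuclear cofactor and autophagy gene, rose in MEC1 (0.36 ± 0.07), JVM2 (0.97 ± 0.04) and EHEB (0.53 ± 0.05).

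**Figure D3:**
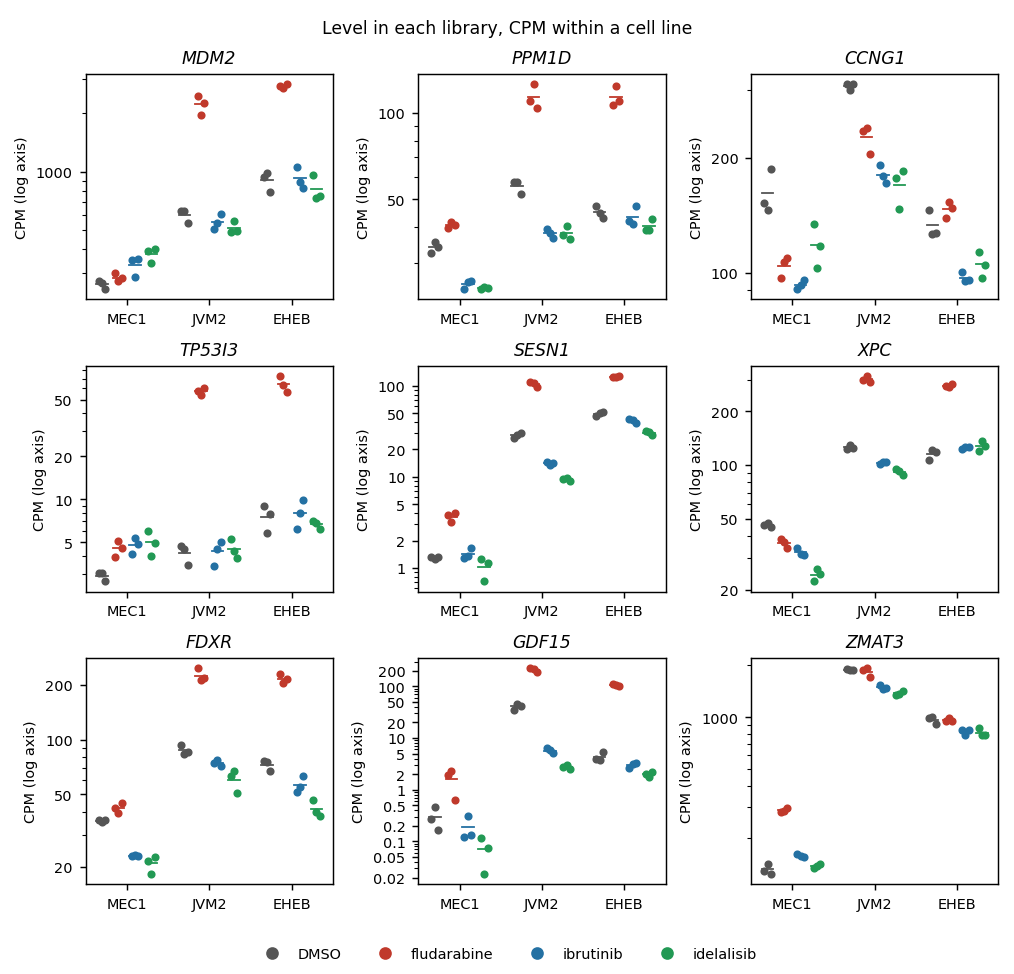
Level of 9 genes in each of the 36 libraries, in CPM scaled within a cell line on log axes, with 3 points and a bar at the mean for each group, coloured by treatment. Fludarabine (red) stood well above DMSO (grey) for MDM2, TP53I3, XPC and FDXR in JVM2 and EHEB, while ZMAT3 rose in MEC1.

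The genes listed under DNA repair did not all divide the lines in the same way. XPC, the damage sensor of nucleotide excision repair, fell in MEC1 from 46.2, 47.03 and 44.7 CPM to 38.7, 36.97 and 34.2 CPM (-0.33 ± 0.08, adjusted p = 0.0045). In JVM2 it rose from 123, 129 and 125 CPM to 299.8, 315 and 291 CPM (1.26 ± 0.05, adjusted p = 5.23e-09), and in EHEB from 106, 121 and 119 CPM to 276, 273 and 283 CPM (1.27 ± 0.06, adjusted p = 6.85e-08). The difference between the wild-type lines and MEC1 was 1.55 ± 0.07 (adjusted p = 8.87e-10), and the groups did not overlap in any line. DDB2, which recognises UV lesions with XPC, stood at 41.0, 41.7 and 59.5 CPM against 31.1, 33.8 and 40.0 CPM in MEC1 (-0.44 ± 0.19, adjusted p = 0.0814). It rose from 89.3, 80.7 and 79.2 CPM to 123, 123 and 143.5 CPM in JVM2 (0.64 ± 0.14, adjusted p = 0.00297) and from 56.2, 64.7 and 62.7 CPM to 117, 115 and 117 CPM in EHEB (0.93 ± 0.16, adjusted p = 0.000864). POLH, the translesion polymerase eta gene, rose in JVM2 (0.53 ± 0.07) and more in EHEB (1.45 ± 0.09), and gave -0.05 ± 0.07 in MEC1. AEN, an apoptosis-enhancing nuclease, rose in all 3 lines by 0.45 to 1.12. ASCC3, a helicase of alkylation repair, was lower in MEC1 (-0.46 ± 0.08), slightly higher in JVM2 (0.20 ± 0.04) and gave -0.04 ± 0.04 in EHEB.

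Among the metabolic and mitochondrial genes, TP53I3, a quinone oxidoreductase gene, stood at 3.04, 3.02 and 2.65 CPM with DMSO and 3.91, 5.08 and 4.57 CPM with fludarabine in MEC1. In JVM2 it rose from 4.67, 4.47 and 3.45 CPM to 57.6, 54.1 and 60.3 CPM, and in EHEB from 8.98, 5.75 and 7.83 CPM to 73.0, 63.2 and 56.3 CPM. The log2 fold changes were 0.64 ± 0.18 (adjusted p = 0.0128), 3.77 ± 0.17 (adjusted p = 2.75e-08) and 3.09 ± 0.20 (adjusted p = 4.78e-07). Without MEC1 fludarabine library 47 the first was 0.54 (adjusted p = 0.0531). CMBL, a carboxymethylenebutenolidase homologue, was at 2.09, 2.39 and 2.62 CPM in JVM2 with DMSO and at 20.7, 19.6 and 17.2 CPM with fludarabine (3.01 ± 0.25), and at 64.1, 66.8 and 63.4 against 142.9, 159 and 150.3 CPM in EHEB (1.22 ± 0.07). In MEC1 it fell from 13.3, 14.4 and 12.8 CPM to 11.51, 10.2 and 9.76 CPM (-0.36 ± 0.10, adjusted p = 0.0121).

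SESN1, a sestrin that restrains mTORC1, behaved alike in direction in the 3 lines. It rose from 1.31, 1.26 and 1.32 CPM to 3.77, 3.21 and 4.01 CPM in MEC1 (1.49 ± 0.23), from 26.5, 28.6 and 30.5 CPM to 112, 107 and 96.6 CPM in JVM2 (1.88 ± 0.07) and from 46.3, 50.7 and 51.7 CPM to 126, 126 and 128 CPM in EHEB (1.35 ± 0.06). The difference between the wild-type lines and MEC1 was 0.07 ± 0.11 (adjusted p = 0.783). FDXR, the mitochondrial ferredoxin reductase gene, stood at 35.95, 35.2 and 36.04 against 41.8, 39.5 and 45.0 CPM in MEC1 (0.24 ± 0.08, adjusted p = 0.0373), a call lost without any one library but fludarabine library 47 (adjusted p = 0.0787 to 0.146). It rose from 93.5, 83.5 and 85.6 CPM to 246, 211 and 217 CPM in JVM2 (1.36 ± 0.10) and from 76.6, 75.0 and 66.9 CPM to 230.3, 203 and 214 CPM in EHEB (1.57 ± 0.10). TIGAR, a fructose bisphosphatase that slows glycolysis, rose by 0.86 ± 0.14, 2.03 ± 0.11 and 1.19 ± 0.08, and the alkaline ceramidase gene ACER2 by 0.59 ± 0.21, 2.22 ± 0.12 and 1.86 ± 0.09, in MEC1, JVM2 and EHEB. The MEC1 call of ACER2 was lost without library 37, 38, 46 or 48 (adjusted p = 0.0897 to 0.133). FAM210B rose in all 3 by 0.70 to 0.94.

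SPATA18, a mitochondrial quality control gene also called MIEAP, had no count in the MEC1 DMSO libraries and 6, 3 and 6 counts with fludarabine, too few for the test within MEC1. In JVM2 it rose from 4.88, 4.83 and 5.44 CPM to 35.7, 34.9 and 32.0 CPM (2.76 ± 0.13, adjusted p = 3.91e-08) and in EHEB from 39.3, 37.6 and 35.6 CPM to 116, 122 and 124 CPM (1.69 ± 0.06, adjusted p = 1.88e-08). Its fitted difference of -3.31 between the wild-type lines and MEC1 therefore rests on these 15 counts and depends on the prior count, and it lost the call without MEC1 library 37, 38, 39, 46 or 48 (adjusted p = 0.0605 to 0.104), with DESeq2 (0.0651), with limma-voom (0.141) and without a filter on low counts (0.0542). DRAM1, an autophagy gene, fell in MEC1 from 28.9, 28.3 and 30.7 CPM to 16.0, 12.3 and 15.5 CPM (-1.004 ± 0.25, adjusted p = 0.00759). In JVM2 it stood at 66.2, 23.4 and 63.7 CPM with DMSO and rose to 162, 155 and 171 CPM (1.67 ± 0.50, adjusted p = 0.018), a call lost without DMSO library 86 (1.32, adjusted p = 0.0553). In EHEB it stood at 26.4, 25.8 and 56.8 CPM against 33.1, 91.9 and 86.3 CPM (0.96 ± 0.52, adjusted p = 0.182).

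Among the signalling genes, GDF15, a secreted stress cytokine of the TGF-beta family, was all but silent in MEC1, with 11, 21 and 6 counts under DMSO and 65, 90 and 19 under fludarabine, or 0.268, 0.463 and 0.169 CPM against 1.89, 2.31 and 0.629 CPM (2.40 ± 0.62, adjusted p = 0.00869). In JVM2 it went from 35.6, 46.2 and 41.2 CPM to 222, 213 and 185.6 CPM (2.34 ± 0.12). In EHEB it went from 4.01, 3.72 and 5.40 CPM to 112, 106 and 103 CPM (4.61 ± 0.15), and the response was 2.23 ± 0.35 larger there than in JVM2 (adjusted p = 0.000256). TNFRSF10B, a death receptor for TRAIL, stood at 88.0, 88.4 and 88.7 against 71.4, 84.6 and 81.9 CPM in MEC1 (-0.16 ± 0.07, adjusted p = 0.101). It rose modestly from 71.7, 79.9 and 74.1 CPM to 93.7, 88.9 and 95.6 CPM in JVM2 (0.30 ± 0.06, adjusted p = 0.00139) and from 157, 152 and 165 CPM to 260.3, 246 and 242 CPM in EHEB (0.66 ± 0.05, adjusted p = 3.42e-06).

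FAS, the death receptor for FAS ligand, stood at 37.3, 40.8 and 36.4 against 37.7, 16.1 and 37.6 CPM in MEC1, at 78.9, 160.5 and 169 against 196, 204 and 191.9 CPM in JVM2, and at 206, 93.2 and 187 against 249, 268 and 266 CPM in EHEB. Every fludarabine library lay above every DMSO library in JVM2 and EHEB, but the log2 fold changes of 0.54 ± 0.32 and 0.68 ± 0.30 did not pass the test (adjusted p = 0.199 and 0.0995). EDA2R, the ectodysplasin A2 receptor gene, had no count in any of the 12 MEC1 libraries. It rose from 26.9, 22.9 and 24.2 CPM to 52.0, 54.2 and 55.8 CPM in JVM2 (1.13 ± 0.09) and from 28.8, 27.4 and 27.3 CPM to 53.5, 60.4 and 63.4 CPM in EHEB (1.09 ± 0.08). CYFIP2, which couples to the actin regulator WAVE, fell in MEC1 from 286.2, 278 and 271 CPM to 147, 152 and 149 CPM (-0.90 ± 0.05, adjusted p = 3.33e-07). It rose from 191.7, 187 and 177 CPM to 297, 295 and 308 CPM in JVM2 (0.69 ± 0.04, adjusted p = 2.38e-07). In EHEB it was at 520, 496 and 463 CPM against 567, 540 and 549 CPM (0.16 ± 0.06, adjusted p = 0.04), a call lost without any one library but EHEB_CTRL_DMSO_133 (adjusted p = 0.0759 to 0.179). NINJ1, a plasma membrane rupture gene, rose in EHEB (1.77 ± 0.09) and gave 0.35 ± 0.18 in JVM2, RAP2B, a small GTPase gene, rose in both (1.17 ± 0.06 and 0.88 ± 0.05), and SUSD6 rose in MEC1 (0.37 ± 0.07) and JVM2 (0.49 ± 0.04). TNFSF8, the CD30 ligand gene, was too low to test in any line. Of the remaining genes, TRIAP1, RPS27L, BLOC1S2, ZNF79 and ASTN2 rose in both JVM2 and EHEB by 0.51 to 1.41, and TRIAP1 fell in MEC1 (-0.39 ± 0.09).

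CDKN1A, PHLDA3, DRAM1 and FAS shared a feature of the counts that touches their tests. Within groups of 3 libraries they lay at 2 separate levels, the highest being up to 3.71 times the lowest where levels were above 10 CPM, and different libraries were low for different genes. PMAIP1, TP63 and MDM4, from the pathway lists below, were also uneven within groups. The cause was not tested. Of the 40 genes tested less CDKN1A, PHLDA3, DRAM1 and FAS, 33 were called higher in JVM2 and 31 in EHEB. The shares of all genes called higher were 23.9% and 18.4%.

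**Figure D4:**
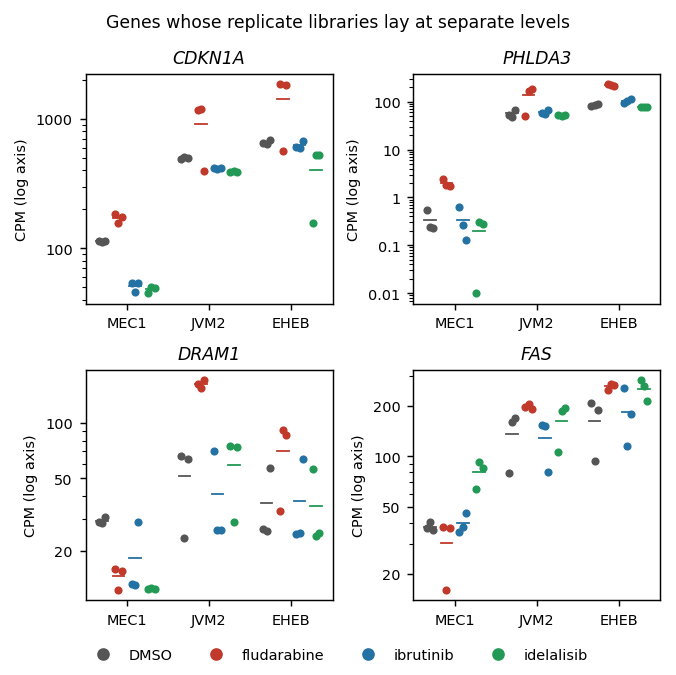
Level of CDKN1A, PHLDA3, DRAM1 and FAS in each library, in CPM scaled within a cell line on log axes, with a bar at the mean of 3 libraries and values of 0 drawn at 0.01. Single libraries stand apart from the others of their group, as CDKN1A at 393 CPM in a JVM2 fludarabine library and 569 CPM in an EHEB fludarabine library.

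A second question was how the lines differed without any drug. With DMSO, 33 of 40 genes were higher in JVM2 than in MEC1 (33.7% of 17394 genes were) and 4 lower (30.1%), and 34 were higher in EHEB than in MEC1 (35.8%) and 2 lower (31.6%). Both the 33 and the 34 include SPATA18 and EDA2R, which passed the filter only through the JVM2 and EHEB libraries. Being tested already fixed the direction of these genes. Between EHEB and JVM2, 17 were higher in EHEB (29.9%) and 13 lower (29.6%). The median log2 differences were 1.09, 1.45 and 0.15, and the first pair was the same with SPATA18 and EDA2R at their bounds below. The JVM2 and EHEB comparisons share the MEC1 libraries. Apart from SPATA18 and EDA2R, which had no count in MEC1, the gaps above 3 in both lines were those of PHLDA3 (7.49 ± 0.27 and 8.07 ± 0.28 in JVM2 and EHEB), PLK2 (6.40 ± 0.46 and 6.48 ± 0.46), SESN1 (4.56 ± 0.09 and 5.36 ± 0.09), GDF15 (7.15 ± 0.30 and 3.92 ± 0.29) and GADD45A (3.49 ± 0.09 and 3.25 ± 0.08). ZMAT3 (3.95 ± 0.07 and 2.99 ± 0.06), CDKN1A (2.24 ± 0.04 and 2.64 ± 0.04) and MDM2 (1.29 ± 0.09 and 1.88 ± 0.09) were also higher. SPATA18 was at least 66.0-fold higher in JVM2 and at least 496-fold higher in EHEB, and EDA2R at least 323-fold and 368-fold higher, taking 3 counts per library as the most that the 0 in MEC1 allows. POLH was lower in JVM2 (-0.25 ± 0.09), a call lost without library 38, 39, 85 or 87 (adjusted p = 0.0668 to 0.0965), and in EHEB (-0.41 ± 0.09), and CMBL was lower in JVM2 (-2.40 ± 0.09) but higher in EHEB (2.37 ± 0.09). PHLDA3, PLK2, GDF15 and SESN1, which fludarabine raised in MEC1, lay there with fludarabine below every DMSO library of JVM2 and EHEB.

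**Figure D5:**
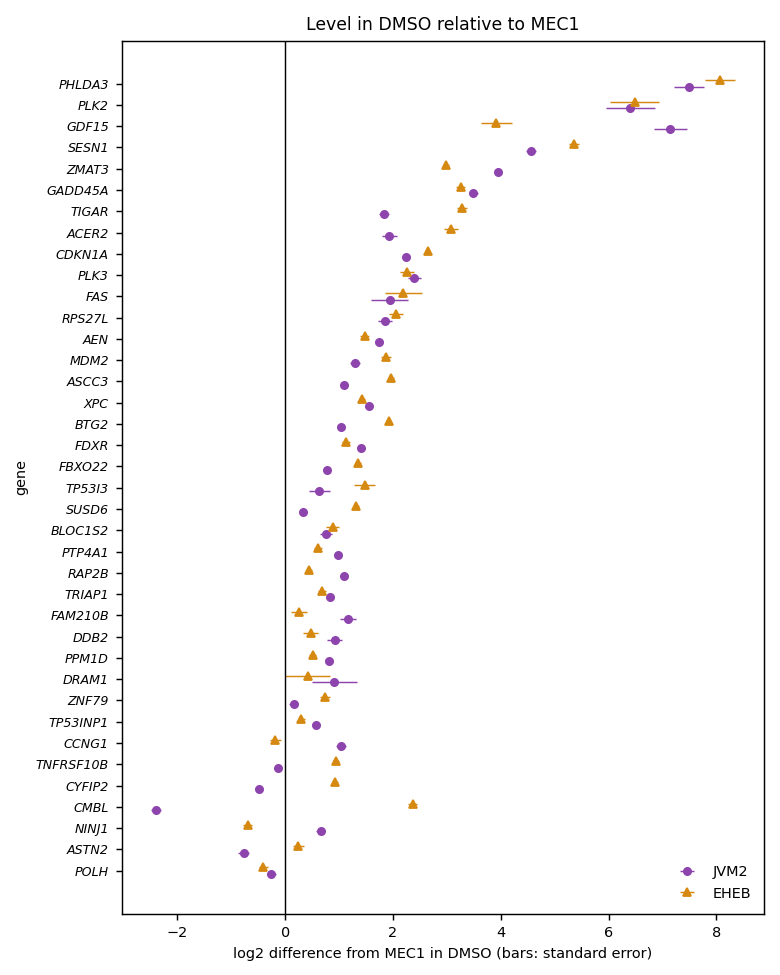
Log2 difference of each gene from MEC1 in the DMSO libraries of JVM2 (circles) and EHEB (triangles), with the standard error, for genes counted in MEC1 (SPATA18 and EDA2R, at 0 there, are left out). Most genes lie to the right of 0, PHLDA3 and PLK2 the farthest, while POLH lies to the left for both lines.

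The kinase inhibitors were set against the same DMSO libraries, and under them more of these genes were lower than higher in every line. The B-cell marker sum moved as well, to 1463 to 1645 CPM with ibrutinib and 1307 to 1387 CPM with idelalisib in MEC1 against 876 to 956 CPM with DMSO. The sum of the markers of other cell types was 31.9 to 37.8 CPM with idelalisib against 21.5 to 23.5 CPM in JVM2, and 13.9 to 19.2 against 7.56 to 7.63 CPM in EHEB. The part of these shifts was not tested. In MEC1, ibrutinib left 8 of 38 genes higher and 17 lower than DMSO, where 23.7% and 23.9% of all genes were, and idelalisib 10 higher and 21 lower, against 27.6% and 27.4%. In JVM2, ibrutinib left 3 of 40 higher and 22 lower, against 14.5% and 15% of all genes, and idelalisib 3 and 26, against 21.6% and 22.6%. In EHEB, ibrutinib left 4 higher and 12 lower, against 8.5% and 11.2%, and idelalisib 1 and 22, against 15.1% and 18.2%. The median log2 fold changes were -0.21 and -0.32 in MEC1, -0.31 and -0.45 in JVM2 and -0.09 and -0.28 in EHEB, for ibrutinib and idelalisib. With ibrutinib 2 genes, CCNG1 and NINJ1, of the 38 tested in all 3 lines were lower in each, where 3.16% of all genes were. With idelalisib 9 were, against 6% of all genes, namely CCNG1, CMBL, FDXR, GDF15, NINJ1, POLH, PTP4A1, RAP2B and TNFRSF10B. Some of these calls were lost when a single library was left out. In EHEB this held for NINJ1 with ibrutinib (EHEB_CTRL_DMSO_133, EHEB_CTRL_DMSO_135, EHEB_Ibru_5uM_280 or EHEB_Ibru_5uM_281, adjusted p up to 0.103) and with idelalisib (EHEB_Idel_10uM_288, adjusted p = 0.0513). It held there with idelalisib for POLH (EHEB_CTRL_DMSO_134 or EHEB_CTRL_DMSO_135 or any of the idelalisib libraries, adjusted p up to 0.183) and for TNFRSF10B (EHEB_CTRL_DMSO_133, EHEB_CTRL_DMSO_135, EHEB_Idel_10uM_286 or EHEB_Idel_10uM_288, adjusted p up to 0.117). In MEC1 it held with idelalisib for GDF15 (DMSO library 37 or 38, MEC1_Idel_10uM_48h_191 or MEC1_Idel_10uM_48h_192, adjusted p up to 0.128) and for CMBL (DMSO library 38 or MEC1_Idel_10uM_48h_191, adjusted p up to 0.0878). GDF15 stood at 6.30, 5.76 and 5.11 CPM with ibrutinib and 2.74, 3.04 and 2.503 CPM with idelalisib in JVM2, against 35.6, 46.2 and 41.2 CPM with DMSO (-2.84 ± 0.12 and -3.89 ± 0.13). SESN1 fell there to 14.6, 13.4 and 14.3 CPM and to 9.48, 9.83 and 9.10 CPM, from 26.5, 28.6 and 30.5 CPM, and PLK2 by 1.65 and 1.94 on the log2 scale. MDM2 did not pass the test with either inhibitor in JVM2 or EHEB and was slightly higher in MEC1, at 354, 285.9 and 356 CPM with ibrutinib and 393, 338 and 401 CPM with idelalisib against 275, 269 and 249 CPM (0.33 ± 0.09 and 0.51 ± 0.09). The ibrutinib call of MDM2 was lost without DMSO library 39, MEC1_Ibru_5uM_48h_184 or MEC1_Ibru_5uM_48h_186 (adjusted p = 0.0539, 0.0637 and 0.054), and in JVM2 idelalisib gave -0.29 without library 87 (adjusted p = 0.0495). TP53INP1 rose most with the inhibitors in MEC1, from 128, 147 and 127 CPM to 402, 414 and 394 CPM with ibrutinib and 482, 509 and 487 CPM with idelalisib (1.59 ± 0.07 and 1.88 ± 0.07), and rose in EHEB (0.47 ± 0.05 and 0.98 ± 0.05). In JVM2 it fell with ibrutinib, from 186.1, 189 and 181 CPM to 158, 145 and 147 CPM (-0.30 ± 0.04), and rose with idelalisib to 218, 209.5 and 214 CPM (0.21 ± 0.04).

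Fludarabine was then set against the mean of both inhibitors within each line. In MEC1, 21 of 38 genes were higher with fludarabine and 7 lower, where 30.3% and 28.1% of all genes were. In JVM2, 38 of 40 were higher and 0 lower (22.9% and 22.7% of all genes), the count of lower genes being 0 also at an unadjusted p under 0.05 in edgeR and with DESeq2 and limma-voom. In EHEB 37 of 40 were higher and 1, TP53INP1, lower (22.4% and 19.8%). The median log2 differences were 0.40, 1.39 and 1.29.

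Other genes of the pathway, from lists made for this description, were read alongside. Of 8 p53 death targets, 5 of 8 tested were higher with fludarabine in JVM2, 6 of 8 in EHEB and 3 of 7 in MEC1, where 3 others were lower. TP53AIP1, too low to test in MEC1, passed the filter in JVM2 only through its fludarabine libraries (1.08, 0.521 and 0.814 CPM). It was at 0 in every other JVM2 library, so being tested already went with being high there. The shares of all genes higher were 23.9%, 18.4% and 21.2%, and 22.7% were lower in MEC1. PIDD1, a death domain adaptor gene, rose in every line (0.33 ± 0.11, 1.34 ± 0.10 and 1.96 ± 0.09 in MEC1, JVM2 and EHEB), a call lost in MEC1 without library 37, 39, 46 or 47 (adjusted p = 0.0694 to 0.107) and without a filter (0.0725). PERP, a membrane protein gene, rose in MEC1 (1.72 ± 0.19) and EHEB (0.70 ± 0.09). In JVM2 it stood at 13.0, 13.8 and 16.2 CPM with DMSO against 21.2, 20.8 and 14.7 CPM with fludarabine, where the groups overlapped. PMAIP1, which encodes the BH3-only protein NOXA, lay at separate levels within groups. It stood at 224, 231 and 236 CPM with DMSO and 164, 163 and 63.6 CPM with fludarabine in MEC1 (-0.82 ± 0.26, adjusted p = 0.0241), a call lost without DMSO library 38 or 39 (adjusted p = 0.0515 and 0.0554), with library size scaling (0.0918) and in a fit of 2 groups (0.0772). In JVM2 it stood at 180.3, 296.5 and 289.5 CPM against 363, 124 and 118 CPM (-0.34 ± 0.37, adjusted p = 0.477), and without fludarabine library 94 it was lower (-1.08, adjusted p = 0.000786). In EHEB it rose from 156, 145 and 143.4 CPM to 310.5, 208 and 307 CPM (0.90 ± 0.12), with no overlap. Of 14 further p53 targets, 9 of 11 tested were higher in JVM2 and 2 lower, 11 of 13 higher and 1 lower in EHEB, and 2 of 12 higher and 2 lower in MEC1, where the shares over all genes were 21.2% and 22.7%. Those shares were 23.9% and 23.3% in JVM2 and 18.4% and 19.2% in EHEB. The genes tested include TNFRSF10A and SFN in JVM2, TNFRSF10C in EHEB and THBS1 in MEC1. These passed the filter only through their fludarabine libraries, so being tested already went with being high there. TNFRSF10C, for example, stood at 0.099, 0 and 0.111 CPM with DMSO in EHEB and at 10.3, 9.96 and 7.84 CPM with fludarabine. TNFRSF10A, another TRAIL receptor gene, had no count in the JVM2 DMSO libraries, lay at 2.98, 3.28 and 2.91 CPM with fludarabine there, and rose in EHEB from 1.41, 1.72 and 1.02 CPM to 10.1, 12.1 and 13.2 CPM (3.10 ± 0.54). In MEC1 it went the other way, from 14.98, 15.14 and 14.06 CPM with DMSO to 12.35, 11.6 and 8.94 CPM with fludarabine, and the groups did not overlap.

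A further list held 20 cell cycle genes that the DREAM repressor complex is known to silence downstream of p21, and its response to fludarabine differed between the lines. In JVM2 all 20 tested were lower with fludarabine (median log2 fold change -2.91), where 23.3% of all genes were. In EHEB 10 were lower (median -0.34), against 19.2% of all genes. In MEC1 5 were lower and 2 higher (median -0.03), against 22.7% and 21.2% of all genes. By the interaction test the effect lay lower in JVM2 and EHEB together than in MEC1 for all 20, where it did for 16.2% of all genes. It also lay lower in JVM2 than in EHEB for all 20, against 9.63% of all genes. PLK1, a mitotic kinase gene, fell from 52.3, 53.7 and 65.9 CPM to 1.64, 2.34 and 1.67 CPM in JVM2 (-4.92 ± 0.22), from 25.5, 30.2 and 22.6 CPM to 12.5, 10.3 and 13.3 CPM in EHEB (-1.12 ± 0.16) and from 77.1, 79.9 and 92.4 CPM to 65.7, 62.1 and 71.6 CPM in MEC1 (-0.32 ± 0.11). CDC20, the anaphase activator gene, fell by 4.87, 0.89 and 0.28 on the log2 scale in the same order. The MEC1 calls of PLK1 (without library 39, 46 or 47, adjusted p = 0.0821 to 0.126) and CDC20 (without library 37, 39 or 47, adjusted p = 0.0598 to 0.112) were lost without single libraries, and with library size scaling (0.652 and 0.835), the stricter filter (0.12 and 0.0876) and the joint fit (0.163 and 0.0739). With idelalisib, 19 of the 20 cell cycle genes were lower in JVM2 and 20 of 20 in EHEB, where 22.6% and 18.2% of all genes were. Lower levels were not particular to these groups. PLK1 stood at 35.8, 21.5 and 26.0 CPM with ibrutinib in JVM2. In MEC1 it stood at 66.3, 64.4 and 54.9 CPM with ibrutinib and at 44.9, 58.2 and 50.4 CPM with idelalisib. Not every gene went this way, as MCM5 rose with ibrutinib in JVM2 (105, 117 and 119 against 73.9, 72.0 and 69.0 CPM). The cause was not tested.

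Of the 17 regulators of p53, 4 were higher and 9 lower with fludarabine in JVM2, 1 higher and 5 lower in EHEB and 5 higher and 4 lower in MEC1. The shares of all genes were 23.9% and 23.3% in JVM2, 18.4% and 19.2% in EHEB and 21.2% and 22.7% in MEC1. PRMT5, an arginine methyltransferase of p53, was higher in all 3 lines (0.70 ± 0.10, 0.26 ± 0.07 and 0.38 ± 0.08), though the JVM2 call was lost without library 85 or 94 (adjusted p = 0.0553 and 0.0559). USP7, the deubiquitinase of p53 and MDM2, was lower in all 3 (-0.60 ± 0.09, -0.82 ± 0.05 and -0.53 ± 0.06). ATR, a damage kinase gene, rose in MEC1 (0.44 ± 0.06) and JVM2 (0.54 ± 0.06) and fell in EHEB (-0.20 ± 0.07), a call lost without any one library but EHEB_CTRL_DMSO_135 (adjusted p = 0.0554 to 0.141), with library size scaling (0.336), with the stricter filter (0.062) and in a fit of 2 groups (0.0661). TP63, a p53 family member, stood at 88.3, 48.5 and 39.4 CPM with DMSO and 117.5, 91.5 and 111 CPM with fludarabine in MEC1 (0.86 ± 0.24, adjusted p = 0.0122), a call lost without DMSO library 38 (adjusted p = 0.0515). It fell from 264.5, 260 and 264 CPM to 69.5, 153.5 and 149 CPM in JVM2 (-1.08 ± 0.22) and from 145, 70.1 and 126 CPM to 28.9, 43.8 and 58.5 CPM in EHEB (-1.38 ± 0.33). The groups did not overlap in any line, although single libraries stood apart within them.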

How the data were processed

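Total RNA depleted of ribosomal RNA was sequenced from 36 libraries of MEC1, JVM2 and EHEB cells. The authors trimmed reads with Trimmomatic, aligned them to GRCh38 with HISAT2 2.1 and estimated gene counts with StringTie 1.3.4. The deposited values are expected counts per gene symbol, all whole numbers. Neither strand nor annotation release is given in the sources used here. A row with no symbol (0.00384% of counts) was left out. Library totals of 26590705 to 53538925 counts leave counting error below the spread between replicates for all but the lowest genes. Replicate pairs of a group differed by 27.2 to 53.6 times counting error (chi-square per degree of freedom), so none was counted as 1 sample.

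Groups came from the sample labels. Each line (12 libraries), the 18 DMSO and fludarabine libraries (interaction) and the 9 DMSO libraries were fitted apart in edgeR 4.0.16 (R 4.3.3) with TMM scaling, filterByExpr (minimum count 10, total 15) and the quasi-likelihood test. P values were Benjamini-Hochberg adjusted over all genes tested, with a call at 0.05. The standard error is the log2 fold change divided by the square root of F. CPM are scaled by TMM within each fit, except marker sums, which use library size. The scripts were tested on simulated data. DESeq2 1.42.0, limma-voom 3.58.1, library size scaling, no filter, a stricter filter (mean CPM of 5), other sets of libraries and leaving out each library were tried. Response elements were searched in the GRCh38 genome.

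The genes and lists were chosen with earlier results of these data known. Every gene of the list could be named. Values by library were given for a fixed set of core targets, for those with the 2 largest called rises and falls per line, and for the 3 largest differences of effect in each direction. From the pathway lists, the 2 called genes with the largest mean rise and the 2 with the largest mean fall were named. Some genes that these rules or lists hold are not reported here.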

Additional observations from a re-analysis of the deposited data

Results flagged for a closer look

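The genes below are those whose fludarabine effect differed between lines by a test of the difference itself (log2 scale, edgeR's quasi-likelihood test of the interaction). No explanation was weighed.

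The effect was larger in JVM2 and EHEB than in MEC1 for 28 genes (adjusted p = 8.87e-10 to 0.00978). Past 2 on the log2 scale were TP53I3 (2.75), CMBL (2.43) and DRAM1 (2.27). Between 1 and 2 were TRIAP1 (1.65), MDM2 (1.59), XPC (1.55), ACER2 (1.39), CYFIP2 (1.28), GADD45A (1.23), DDB2 (1.18), FDXR (1.18), BLOC1S2 (1.16), PLK3 (1.10) and ZNF79 (1.05). Below 1 were POLH (0.99), RPS27L (0.90), PPM1D (0.88), RAP2B (0.82), TIGAR (0.70), NINJ1 (0.69), ASTN2 (0.62), FBXO22 (0.60), AEN (0.59), TNFRSF10B (0.59), ASCC3 (0.48), CCNG1 (0.43), TP53INP1 (0.34) and PTP4A1 (0.31). The effect was smaller in JVM2 and EHEB for ZMAT3 (-1.21, adjusted p = 3.63e-09), which rose in all 3 MEC1 fludarabine libraries, and for SPATA18 (-3.31, adjusted p = 0.0324), a fitted value that rests on 15 counts in MEC1.

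Between the lines with wild-type p53, the effect was larger in EHEB for GDF15 (2.23), NINJ1 (1.38), POLH (0.88), PLK3 (0.67), CCNG1 (0.55), GADD45A (0.49), PTP4A1 (0.33), TNFRSF10B (0.32) and RAP2B (0.25). It was larger in JVM2 for CMBL (-1.83), SPATA18 (-1.11), TIGAR (-0.88), TP53I3 (-0.72), ASTN2 (-0.69), CYFIP2 (-0.57), SESN1 (-0.56), TP53INP1 (-0.48), SUSD6 (-0.48), BTG2 (-0.32) and ASCC3 (-0.28). The adjusted p ran from 5.67e-08 to 0.0247. Leaving out single libraries ended the calls of TP53I3 (EHEB_CTRL_DMSO_133, EHEB_CTRL_DMSO_135, EHEB_Flud_50uM_143, EHEB_Flud_50uM_144 or JVM2 library 87, 94 or 96, adjusted p = 0.0501 to 0.0907), PTP4A1 (EHEB_Flud_50uM_143 or JVM2 library 96, adjusted p = 0.0601 for each), RAP2B (EHEB_Flud_50uM_143, adjusted p = 0.0521) and TNFRSF10B (JVM2 library 95, adjusted p = 0.0502).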

How the results depend on the processing

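No paired analysis was possible because no 2 groups share a library number. Of 319 summary values under alternatives other than leaving out a library, 292 kept their direction and stayed within the spread or within 1.5 times, and of the values of single genes 4169 of 4348 kept their direction and call. With library size scaling the median of all genes moved by 0.25, 0.20 and 0.11 in the fludarabine comparisons of MEC1, JVM2 and EHEB, by 0.26 and 0.11 against the inhibitors in MEC1 and JVM2, by 0.10 with idelalisib in JVM2 and ibrutinib in EHEB, and by -0.14 and -0.12 for JVM2 and EHEB against MEC1 in DMSO, and with the stricter filter by 0.12 for idelalisib in MEC1. Under that scaling 74.1% of calls were higher in place of 48.4% with fludarabine in MEC1, 69.1% in place of 50.6% in JVM2 and 61.8% in place of 48.9% in EHEB. The same split was 62.2% in place of 49.1% and 59.5% in place of 48.8% for ibrutinib and idelalisib in JVM2, 65.4% in place of 43.1% and 59.6% in place of 45.3% in EHEB, and 68.9% in place of 51.8% and 62.8% in place of 50.2% for fludarabine against the inhibitors in MEC1 and JVM2.

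Library size scaling gave 3 genes lower with fludarabine in MEC1, 7 higher with ibrutinib and 4 higher with idelalisib in EHEB, and fludarabine medians of 0.44, 1.33 and 1.21 in MEC1, JVM2 and EHEB. Its inhibitor medians were -0.14 and -0.42 in MEC1, -0.23 and -0.35 in JVM2, and 0.013, which turned the direction, and -0.19 in EHEB. It also turned CCNG1 (0.26) and ASCC3 (0.24) against the inhibitors in MEC1 and ZMAT3 (0.16) with fludarabine in JVM2. The stricter filter gave fludarabine medians of 0.22, 1.19 and 1.15, an idelalisib median of -0.18 in MEC1 and 2 genes higher with idelalisib in EHEB. Without a filter the fludarabine median in EHEB was 1.07, 2 genes were higher with ibrutinib there and 1 had a smaller effect in JVM2 and EHEB than in MEC1, as with limma-voom (1), which gave a JVM2 fludarabine median of 1.09. The joint fit gave MEC1 medians of 0.22 with fludarabine and -0.16 with ibrutinib and 2 genes higher with ibrutinib in EHEB, and fits of 2 groups gave ibrutinib medians of -0.27 in MEC1 and -0.29 in JVM2. The cause of these moves was not tested, other than the shift that each scaling or set of genes brings.

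With single libraries left out, the fludarabine median ran from 0.17 to 0.21 for MEC1, 1.09 to 1.13 for JVM2 and 1.09 to 1.17 for EHEB. The inhibitor medians ran from -0.29 to -0.11 and -0.40 to -0.29 for ibrutinib and idelalisib in MEC1, -0.33 to -0.27 and -0.46 to -0.42 in JVM2 and -0.11 to -0.06 and -0.35 to -0.24 in EHEB. The genes higher in EHEB were 1 to 5 with ibrutinib and 1 to 2 with idelalisib, and 1 to 3 had the smaller effect in JVM2 and EHEB. Leaving out CDKN1A, PHLDA3, DRAM1 and FAS, chosen after seeing the data, kept every count within 1.5 times. At the counts of PLK2, GDF15, PHLDA3 and SPATA18 in MEC1, depth limits the fold changes.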
